A study of Mus musculus with 6 samples.

Results

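The genes of MHC class II antigen presentation were examined in mouse dendritic cells that do or do not carry Ly6G, a surface protein typical of neutrophils. The set comprised 10 genes: the class II chain genes H2-Aa, H2-Ab1 and H2-Eb1, the invariant chain gene Cd74, the peptide-loading factor genes H2-DMa, H2-DMb1 and H2-DMb2, the genes of its inhibitor H2-Oa and H2-Ob, and the transcriptional coactivator Ciita. Every probe set annotated with exactly 1 gene symbol on that list was taken, which gave 19 of the 45101 probe sets of the array. They covered 9 of the 10 genes, out of 18193 genes with such a probe set. H2-DMb1 had 0 probe sets of its own, and 3 probe sets that carry a listed symbol beside another were left out. All 19 passed the filter on low signals, as did 28254 probe sets in all.

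Crude bone marrow of C57BL/6 mice was cultured with GM-CSF at 10 ng/ml, a growth factor that drives dendritic cells to form in culture. On day 6, cells positive for CD11c and MHC class II were sorted from such cultures. They were split into Ly6G+ dendritic cells (Ly6G+ DC, 3 samples) and Ly6G- dendritic cells (Ly6G- DC, 3 samples). Both groups therefore share strain, growth factor, culture time and the gate on CD11c and MHC class II, and differ by label in Ly6G alone. The age of the mice is not given in the sources used here, nor whether same-numbered samples of the groups share a culture. Also not given is whether replicate samples stem from different cultures or animals. All p-values therefore rest on a spread among 3 samples that may be technical.

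MHC class II molecules are heterodimers of an alpha and a beta chain that show peptides from the endocytic pathway to CD4+ T cells, and dendritic cells are their best known users. The chains assemble on the invariant chain, which is cut by lysosomal proteases until a short fragment is left in the groove. H2-DM then exchanges that fragment for antigenic peptide, and H2-O restrains H2-DM. Transcription of these genes depends on Ciita, which binds no DNA itself and is recruited by factors sitting on conserved promoter elements called the X and Y boxes. In C57BL/6 mice the partner of H2-Eb1, the E alpha chain gene H2-Ea, is defective, so the I-E molecule is absent from their cells and I-A, made of H2-Aa and H2-Ab1, is the class II molecule presented.

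The promoters are shown because this control is described for the class II genes of the set, Ciita itself aside. Of the 10 genes, 7 were searched in the RefSeq promoter table (build GRCm38.p6). H2-Ab1 and Ciita had no entry there. Cd74 was excluded from this count by choice, and whether its promoter holds a Y box is not given here. A Y box, searched as TGATTGG on both strands, was found in 6 of these 7 genes. That compares with 7.82% of all 32851 promoter windows of the same length. An X box core, searched as AACNNATG on both strands, stood in 8.86% of all windows. These letters were chosen after the promoters of the set had been read. An X box core followed by a Y box after 15 to 25 bases on the same strand was found in 7 windows of all, or 0.0213%, and 4 of these belong to the set; the others are those of H2-Eb2, AU016765 and BC051142. In the sequences, 60 bases each, 5′ to 3′ on the strand of the gene, capitals mark matches to either motif.
H2-Eb1, chr17:34305761-34305820, plus strand: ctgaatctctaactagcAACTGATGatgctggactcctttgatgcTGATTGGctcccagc
H2-DMb1, chr17:34153083-34153142, plus strand: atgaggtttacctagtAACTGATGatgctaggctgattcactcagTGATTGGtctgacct
H2-DMb2, chr17:34145112-34145171, plus strand: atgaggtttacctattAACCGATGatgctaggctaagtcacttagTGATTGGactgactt
H2-Ob, chr17:34238801-34238860, plus strand: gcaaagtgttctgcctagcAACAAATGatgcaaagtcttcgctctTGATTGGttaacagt
H2-Oa, chr17:34092289-34092348, plus strand: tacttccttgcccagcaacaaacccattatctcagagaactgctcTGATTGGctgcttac
H2-Aa, chr17:34287859-34287918, minus strand: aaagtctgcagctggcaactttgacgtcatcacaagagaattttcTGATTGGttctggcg
The Y box began 45 to 92 bases before the annotated start, and where both motifs matched they were 18 to 21 bases apart. H2-Oa and H2-Aa held the Y box without a match to the X box letters, and neither of the windows of H2-DMa held either motif. A match is a description of letters and not a measured binding site.

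The signals used are the authors' MAS5 intensities, linear values per probe set that were scaled on each array to a trimmed mean of 250.0. Median signals were 56.0 to 90.8 across arrays. The arrays separated by a technical measure across both groups: the spiked-in hybridization controls had a geometric mean of 1529 to 2039 on Ly6G+ DC 1, Ly6G+ DC 3 and Ly6G- DC 1 (the low side), against 6688 to 12840 on Ly6G+ DC 2, Ly6G- DC 2 and Ly6G- DC 3 (the high side). The Actb signal at the 3′ end was 1.17 to 1.49 times that at the 5′ end on low side arrays, and 3.98 to 6.85 times on the others. Itgax, the CD11c gene of the sort gate, gave 7884, 5292 and 2728 on the Ly6G+ arrays, against 9630, 5910 and 5610 on the Ly6G- arrays, with overlap. The 8 dendritic cell markers kept had summed signals of 10249 to 16958 in Ly6G+ DC and 17745 to 23830 in Ly6G- DC, and Xcr1, a marker of cross-presenting dendritic cells, was not kept. The 11 neutrophil markers had 67977 to 91818 and 2327 to 13174, and for 11 of 11 every Ly6G+ array was the brighter, against 4.49% of all probe sets. The 7 B lymphocyte markers kept, from a cell type that also makes class II and H2-O, had 608 to 787 and 684 to 1141, with Ebf1 and Fcer2a not kept. Summed signals were 1687 to 2722 and 3852 to 4004 for 6 plasmacytoid dendritic cell markers, and 28403 to 41507 and 27528 to 52852 for 8 macrophage markers. They were 467 to 1105 and 1387 to 1842 for 3 kept T and NK lymphocyte markers, with Cd3d, Cd3e, Cd3g and Nkg7 not kept. Every Ly6G+ array was the dimmer for 4 of 8 dendritic cell and 1 of 7 B lymphocyte markers, beside 7.24% of all probe sets. The same held for 2 of 3 T and NK lymphocyte markers. The groups overlapped for all plasmacytoid dendritic cell and macrophage markers. Of the 8 dendritic cell markers, 2 had positive log2 fold changes of Ly6G+ over Ly6G-. Of the neutrophil markers, Cxcr2 and Cd177 exceeded the 40th percentile, the level of the filter, on the 3 Ly6G+ arrays alone. With the group alone, 0 markers in each list passed the adjusted threshold of limma. With the array name of the sample titles as a block, neutrophil markers passed it, among them S100a8 and S100a9 (limma adjusted p = 0.0188 and 0.0296). Csf3r, Padi4 and Cd177 did not. The part of these cell type markers in the class II values was not tested, and in sorted bulk samples fewer cells of a type and less RNA per cell cannot be told apart.

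Class II probe sets were mostly dimmer in Ly6G+ DC, but none passed the test. Log2 fold changes, given throughout as Ly6G+ over Ly6G- on the log2(signal + 16) scale, were negative for 18 of 19 probe sets, against 55.0% of all 28254. Their median was -0.57 over the 9 probe sets of the sort gate and -0.68 over the 10 others, beside -0.063 over all probe sets. With limma across all probe sets, 0 of 19 passed an adjusted p under 0.05, as did 0% of all probe sets (0 of 28254), and the adjusted p-values of the 19 ran from 0.836 to 0.986. At an unadjusted p under 0.05 there were 2, both lower and both outside the sort gate, where 5.62% of all probe sets lay under that level and 2.87% did so as lower. The groups did not overlap, with every Ly6G+ array lower, for 3 of 9 probe sets of the sort gate and 1 of 10 outside it, against 7.24% of all probe sets. Over all 19 that count was 1, outside the gate, with quantile normalization (5.35% of all) and 0 after scaling every array to the same median, called common median scaling (3.0% of all).

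Because the low side held 2 Ly6G+ arrays and the high side 2 Ly6G- arrays, the group difference and the side were partly mixed, and 15 of the 19 probe sets were brighter on the high side (56.4% of all probe sets). With the side as a block, 19 of 19 had negative log2 fold changes, against 52.0% of all probe sets, and they lay between -0.82 and -0.16. At an unadjusted p under 0.05 there were then 5 of 9 in the sort gate and 4 of 10 outside it, all lower, beside 6.63% of all probe sets and 3.22% in that direction, and again 0 passed after adjustment (limma, smallest adjusted p = 0.743; 0% of all probe sets). Ly6G+ DC 1 and Ly6G- DC 1 lie on the same side and bear the same array name in their titles, and so do number 2 of each group. The hybridization controls were close within number 1, at 1648 on Ly6G+ DC 1 and 1529 on Ly6G- DC 1. Within number 2 they were 6688 on Ly6G+ DC 2 and 12320 on Ly6G- DC 2, with Actb 3′ to 5′ ratios of 3.98 and 6.85. The side as a block does not adjust for that difference within the high side. Lower values in the Ly6G+ array of both of these pairs were found for 9 of 9 probe sets of the sort gate and 8 of 10 outside it, against 27.8% of all. The remaining arrays, number 3, lie on different sides, and their difference was larger, with a median of -1.26 over the 19 against -0.45 for number 1 and -0.40 for number 2.

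**Figure D1:**
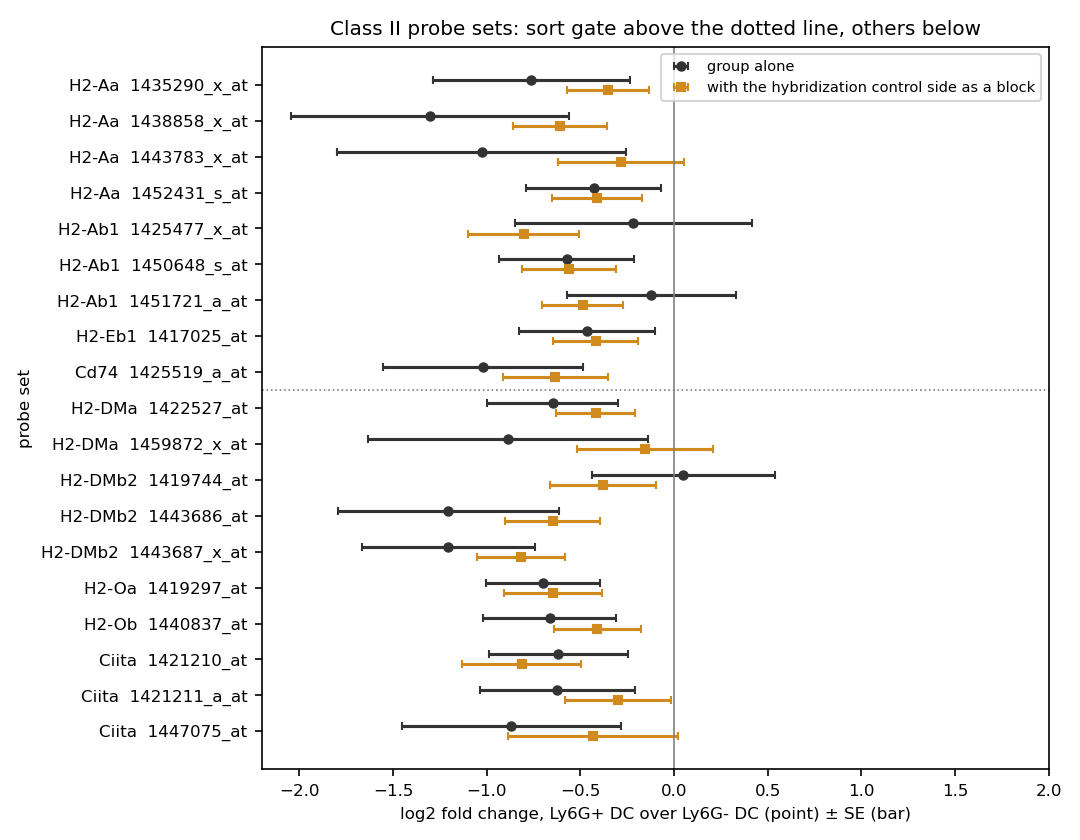
Log2 fold change (x axis, Ly6G+ DC over Ly6G- DC) of each of the 19 class II probe sets (y axis), with bars for the SE from limma; black circles are the fit of the group alone and orange squares the fit in which the side of the hybridization controls is a block. With the group alone 18 of 19 points lie left of 0, and with the block all 19 do.

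The genes of the sort gate are no finding, since cells of both groups were selected on MHC class II protein. H2-Eb1 and Cd74 were counted with them, although I-E is absent from these cells and Cd74 encodes the invariant chain. H2-Eb1, the beta chain of I-E, had signals of 19178, 17968 and 17040 on Ly6G+ DC 1, 2 and 3, against 21721, 22918 and 31091 on Ly6G- DC 1, 2 and 3, the order used throughout. Every Ly6G+ array was lower than every Ly6G- array, and the log2 fold change was -0.47 ± 0.36 (SE, limma adjusted p = 0.852). It had -0.18 within number 1 and -0.35 within number 2. The groups overlapped with quantile normalization, at -0.23, and with common median scaling, at -0.13, and they did so too for the other probe sets of the sort gate that stood apart.

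H2-Aa, the alpha chain of I-A, was read by 4 probe sets. The steadiest, 1452431_s_at, gave 14748, 14257 and 15036 on the Ly6G+ arrays, against 18300, 16356 and 25839 on the Ly6G- arrays. These groups did not overlap and had a log2 fold change of -0.43 ± 0.36 (SE, limma adjusted p = 0.859). Probe set 1438858_x_at gave 14475, 62040 and 22236 on the Ly6G+ arrays, against 22344, 111128 and 120546 on the Ly6G- arrays. Here the 3 arrays of the high side were the 3 brightest whatever their group, and the value of -1.30 ± 0.74 with the group alone was -0.61 ± 0.25 with the side as a block. The others, 1435290_x_at and 1443783_x_at, were also brightest on the high side and had -0.76 ± 0.53 and -1.03 ± 0.77 with the group alone, and -0.35 ± 0.22 and -0.28 ± 0.34 with the block (SE).

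H2-Ab1, the beta chain of I-A, was read by 3 probe sets that followed the sides differently. Probe set 1450648_s_at gave 16313, 12197 and 10093 on the Ly6G+ arrays, against 17551, 17389 and 21661 on the Ly6G- arrays. These groups stood apart, with a log2 fold change of -0.57 ± 0.36 (SE, limma adjusted p = 0.843). Probe set 1425477_x_at ran the other way across the sides, with 2370, 3308 and 6370 on the arrays of the high side and 7296 to 14083 on those of the low side. Its value was -0.22 ± 0.63 with the group alone and 0.11 with common median scaling, and -0.80 ± 0.30 with the side as a block (SE). Probe set 1451721_a_at, annotated with the same transcript record, had -0.12 ± 0.45, 0.21 and -0.49 ± 0.22 in the same order.

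Cd74, the invariant chain that escorts class II molecules to the endosome, gave 22807, 35796 and 11149 on the Ly6G+ arrays, against 24945, 54184 and 56126 on the Ly6G- arrays. The groups overlapped, since Ly6G+ DC 2 lay above Ly6G- DC 1, and Ly6G+ DC 3 was the lowest array. The log2 fold change was -1.02 ± 0.54 with the group alone and -0.63 ± 0.28 with the side as a block (SE), with -0.13 within number 1 and -0.60 within number 2. The defective H2-Ea was not kept: its 3 probe sets gave 3.46 to 68.5 in Ly6G+ DC and 12.9 to 112 in Ly6G- DC, above their array's 40th percentile on at most 2 of 6 arrays.

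**Figure D2:**
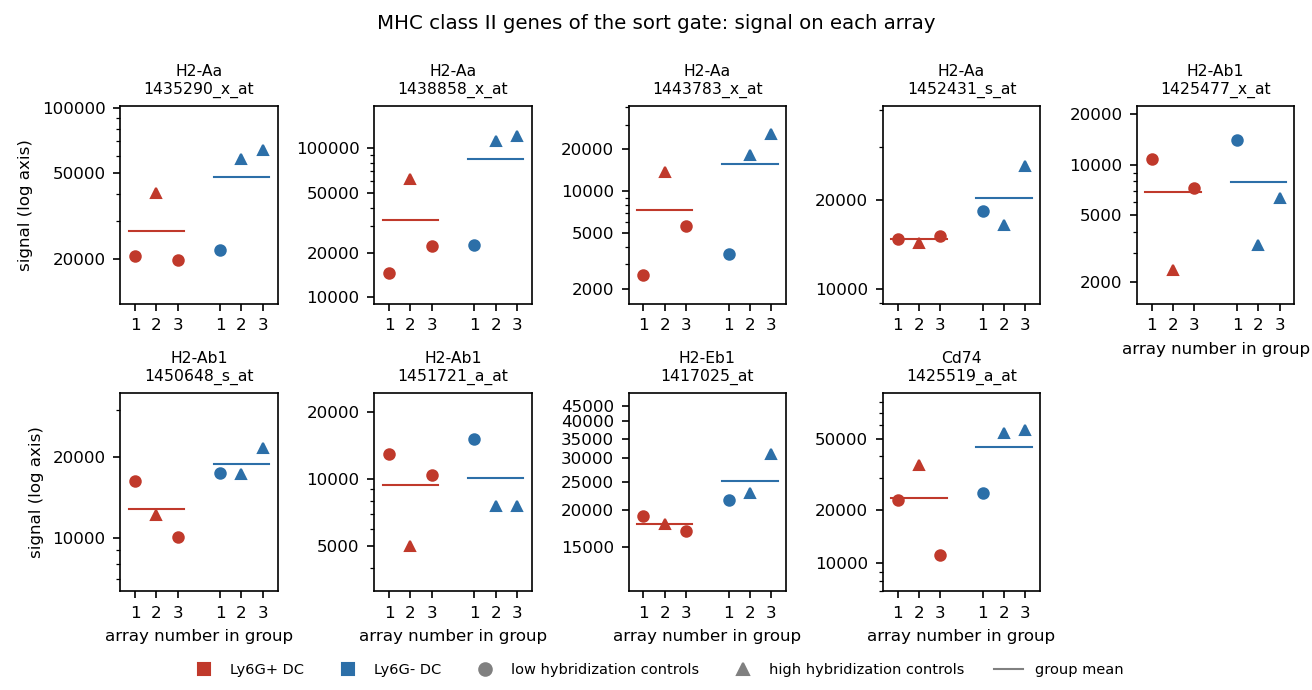
Signal (y axis, log scale) of the 9 probe sets of Cd74 and the chain genes H2-Aa, H2-Ab1 and H2-Eb1 on each array (x axis, number within the group); red is Ly6G+ DC and blue Ly6G- DC, circles are arrays of the low and triangles of the high side, and lines are group means. Triangles stand above circles for H2-Aa 1438858_x_at, from 62040 to 120546, and below them for H2-Ab1 1425477_x_at, from 2370 to 6370.

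Outside the sort gate, the groups did not overlap for 1 of 10 probe sets, that of H2-Oa, against 7.24% of all probe sets. H2-Oa, the alpha chain of the inhibitor of peptide loading, had signals of 1841, 1839 and 1641 on the Ly6G+ arrays, against 2572, 2380 and 3947 on the Ly6G- arrays. The Ly6G+ arrays were close to each other and all lower than the Ly6G- arrays, whichever side they lay on, with means of 1774 ± 115 and 2966 ± 854 (SD, n = 3). The log2 fold change was -0.70 ± 0.30 (SE, unadjusted p = 0.0434 and adjusted p = 0.836 with limma) and -0.65 ± 0.26 with the side as a block, with -0.48, -0.37 and -1.26 within numbers 1, 2 and 3, and it was 1 of the 4 probe sets without overlap. The groups still stood apart with quantile normalization, at -0.73, and overlapped with common median scaling, at -0.37.

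H2-Ob, the beta chain of the same inhibitor, gave 1005, 2082 and 1169 on the Ly6G+ arrays, against 1624, 2385 and 2551 on the Ly6G- arrays. Only Ly6G+ DC 2, on the high side, reached into the range of Ly6G- DC. The log2 fold change was -0.66 ± 0.35 (SE, limma adjusted p = 0.836) and -0.41 ± 0.23 with the side as a block, with -0.68 within number 1 and -0.19 within number 2.

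H2-DMb2, a beta chain of the peptide exchange factor H2-DM, was read by 3 probe sets. The pair annotated with the same transcript record, 1443687_x_at and 1443686_at, had the lowest values outside the sort gate. Probe set 1443687_x_at gave 2844, 8053 and 3155 on the Ly6G+ arrays, against 6354, 10409 and 13490 on the Ly6G- arrays. On each side every Ly6G+ array lay below every Ly6G- array, and the groups overlapped only across sides, by Ly6G+ DC 2 over Ly6G- DC 1. The log2 fold change was -1.21 ± 0.46 with the group alone (SE, unadjusted p = 0.0261, adjusted p = 0.836 with limma). It was -0.82 ± 0.24 with the side as a block (adjusted p = 0.743), with -1.08 among low side and -0.56 among high side arrays.

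Probe set 1443686_at gave 2003, 8368 and 3298 against 4097, 11773 and 14176, and its log2 fold change was -1.21 ± 0.59, or -0.65 ± 0.25 with the block (SE). The remaining probe set of H2-DMb2, 1419744_at, disagreed with that pair. It gave 1948, 1048 and 1727 on the Ly6G+ arrays, against 3364, 852 and 1104 on the Ly6G- arrays, so that the arrays of the high side were the dimmest. Its log2 fold change was 0.050 ± 0.490 with the group alone, -0.031 with quantile normalization and -0.38 ± 0.28 with the side as a block (SE). Within number 1 it was -0.78 and within number 2 it was 0.29.

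H2-DMa, the alpha chain of H2-DM, gave 3397, 5227 and 3318 on the Ly6G+ arrays, against 4339, 7121 and 7378 on the Ly6G- arrays on probe set 1422527_at. Ly6G+ DC 2 again lay above Ly6G- DC 1, and within either side the Ly6G+ arrays were lower. The log2 fold change was -0.65 ± 0.35 (SE, limma adjusted p = 0.836) and -0.42 ± 0.21 with the side as a block, with -0.37 among low side and -0.47 among high side arrays. Its other probe set, 1459872_x_at, ranged from 178 to 1626 and was brighter on every array of the high side than on any of the low side. It had -0.89 ± 0.75 with the group alone and -0.16 ± 0.36 with the block (SE).

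Ciita, the coactivator on which transcription of the class II genes depends, was read by 3 probe sets, each with a negative log2 fold change. Probe set 1421210_at gave 941, 482 and 447 on the Ly6G+ arrays, against 1295, 770 and 759 on the Ly6G- arrays. The number 1 arrays were the brightest of each group, and the groups overlapped only by Ly6G+ DC 1. The value was -0.62 ± 0.37 with the group alone (SE, limma adjusted p = 0.840) and -0.81 ± 0.32 with the side as a block (adjusted p = 0.747), with -0.45, -0.66 and -0.74 within numbers 1, 2 and 3.

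Probe set 1421211_a_at of Ciita gave 311, 743 and 437 on the Ly6G+ arrays, against 458, 762 and 1096 on the Ly6G- arrays, with -0.62 ± 0.41, or -0.30 ± 0.28 with the block (SE). The dimmest, 1447075_at, ranged from 32.5 to 313 and lay under the 40th percentile on Ly6G+ DC 3. It had -0.87 ± 0.58 with the group alone and -0.43 ± 0.45 with the side as a block (SE). Within numbers 1, 2 and 3 it had 0.31, -0.16 and -2.76, and without Ly6G+ DC 3 the group value was -0.26. Across Ciita, H2-DM and H2-O, 10 of 10 probe sets thus had negative values with the side as a block, between -0.82 and -0.16, with 0 past the adjusted threshold.

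**Figure D3:**
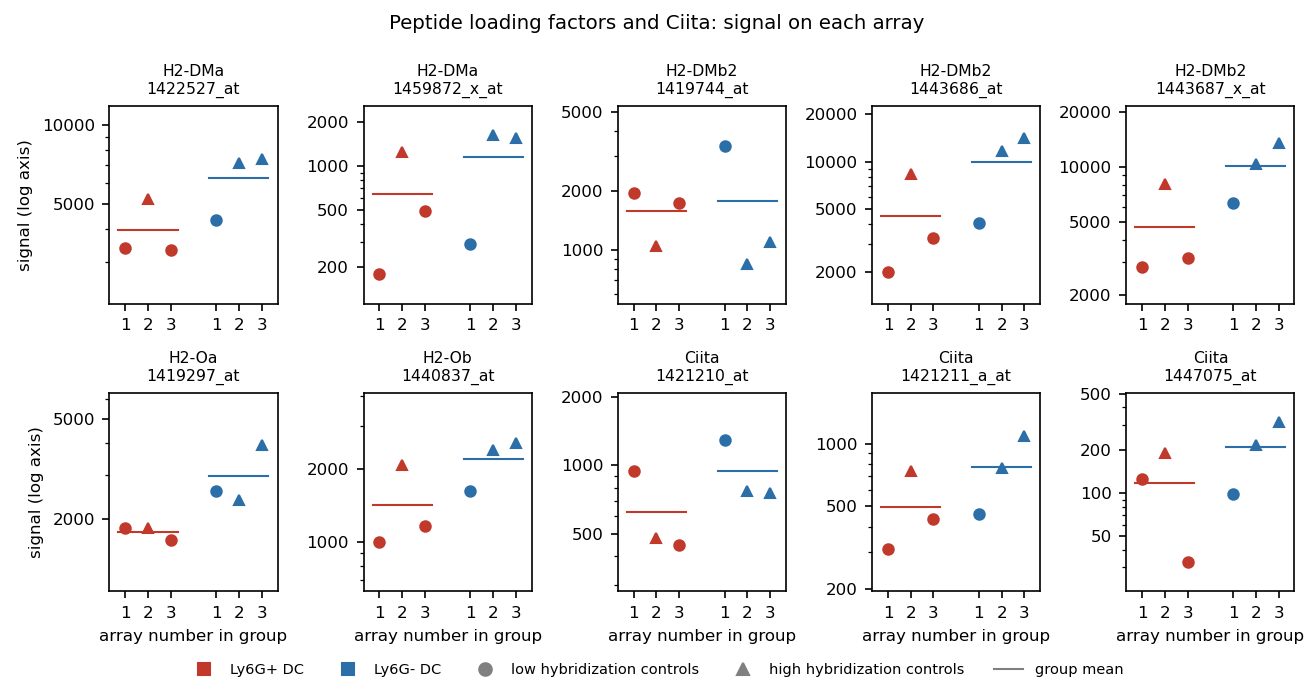
Signal (y axis, log scale) of the 10 probe sets of H2-DMa, H2-DMb2, H2-Oa, H2-Ob and Ciita on each array (x axis, number within the group); red is Ly6G+ DC and blue Ly6G- DC, circles are arrays of the low and triangles of the high side, and lines are group means. The groups stand apart for H2-Oa, at 1641 to 1841 against 2380 to 3947, and overlap for the other 9.

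The other genes of the class II pathway did not share one direction. Of 38 measured genes, each by its brightest kept probe set, 18 had negative and 20 positive log2 fold changes, with a median of 0.02, and 0 passed limma's test (0% of all probe sets), while 8 had an unadjusted p under 0.05, of which 5 were lower and 3 higher (5.62% of all probe sets in either direction). The groups did not overlap for 8 genes lower and 5 higher in Ly6G+ DC, beside 7.24% and 4.49% of all probe sets. With quantile normalization these counts were 6 and 6 (5.35% and 5.56% of all), and with common median scaling 3 and 9 (3.0% and 9.66% of all). Irf8, Spib and Irf4 stood apart as lower under all of these scalings, and Marchf1, Ctsl, Ifngr1, Kat2b and Marchf8 as higher.

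Of the transcription factors listed, Spib, an Ets family factor, had the lowest value. It gave 877, 834 and 430 on the Ly6G+ arrays, against 1901, 1265 and 1662 on the Ly6G- arrays. Its log2 fold change was -1.20 ± 0.35 (SE, limma adjusted p = 0.836). Irf8, which some types of dendritic cell need for their development, gave 2903, 3198 and 2453 against 5751, 4088 and 8023, with -1.01 ± 0.34 (SE). Its other kept probe set also stood apart at -1.28 ± 0.41 (SE). Irf4, a related factor, had -0.67 ± 0.29, while its other probe set overlapped at -0.30 ± 0.33 (SE).

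The subunits of the complex that binds the X box had values of either sign. By their brightest probe sets the groups overlapped: Rfx5 had -0.42 ± 0.29, Rfxank -0.30 ± 0.41 and Rfxap 0.41 ± 0.34 (SE). A dimmer probe set of Rfxank, 57.2 to 93.1 against 102 to 159, did not overlap and had -0.63 ± 0.39, while another overlapped at -0.10 ± 0.49 (SE). The subunits of the Y box factor, Nfya, Nfyb and Nfyc, had -0.42 ± 0.40, 0.24 ± 0.28 and 0.01 ± 0.34 (SE). Jak2, a kinase of interferon gamma signalling, had -0.61 ± 0.33 with a second kept probe set at 0.07 ± 0.53, and Ifngr1, a chain of the interferon gamma receptor, had 0.47 ± 0.29 (SE).

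Regulators of class II turnover had values of either sign. Marchf1, the ubiquitin ligase that marks class II molecules for degradation, gave 795, 752 and 1181 on the Ly6G+ arrays, against 633, 442 and 84.0 on the Ly6G- arrays. All Ly6G+ arrays were higher, and Ly6G- DC 3 was far below the rest. The log2 fold change was 1.55 ± 0.60 (SE, limma unadjusted p = 0.0265, adjusted p = 0.836), with 0.32, 0.74 and 3.58 within numbers 1, 2 and 3. A second kept probe set, which also stood apart, had 0.81 ± 0.40 (SE). Cd83, a surface protein known to counter Marchf1, gave 3762, 4851 and 3658 against 7143, 5064 and 8711. It was lower on every Ly6G+ array, with -0.74 ± 0.33 (SE, limma adjusted p = 0.836), and overlapped with common median scaling, at -0.41. Marchf8, a ligase related to Marchf1, had 0.38 ± 0.31 (SE).

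The lysosomal enzymes differed among themselves. Ctsl, cathepsin L, which cuts the invariant chain in some cell types, gave 8519, 7012 and 9656 on the Ly6G+ arrays, against 5055, 3996 and 2484 on the Ly6G- arrays. The groups stood apart, with a log2 fold change of 1.17 ± 0.35 and 0.996 ± 0.252 with the side as a block (SE, limma adjusted p = 0.836 and 0.707). A dimmer probe set of Ctsl overlapped at 1.23 ± 0.50 (SE). Ctss, cathepsin S, the main protease of the invariant chain in dendritic cells, gave 19780, 35934 and 19421 on the Ly6G+ arrays, against 18150, 41997 and 43249 on the Ly6G- arrays. It followed the sides, and its -0.42 ± 0.48 with the group alone was -0.068 ± 0.211 with the block (SE) and 0.083 with quantile normalization. Ifi30, a lysosomal thiol reductase that opens disulfide bonds of antigens, was lower on every Ly6G+ array, at 7733 to 9174 against 10072 to 12636, with -0.37 ± 0.32 (SE). Lgmn, an asparagine-specific protease, had 0.19 ± 0.51, and Cst3, a cathepsin inhibitor, had -0.33 ± 0.35 (SE). The groups overlapped for Ifi30 and Cst3 with quantile normalization and with common median scaling.

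**Figure D4:**
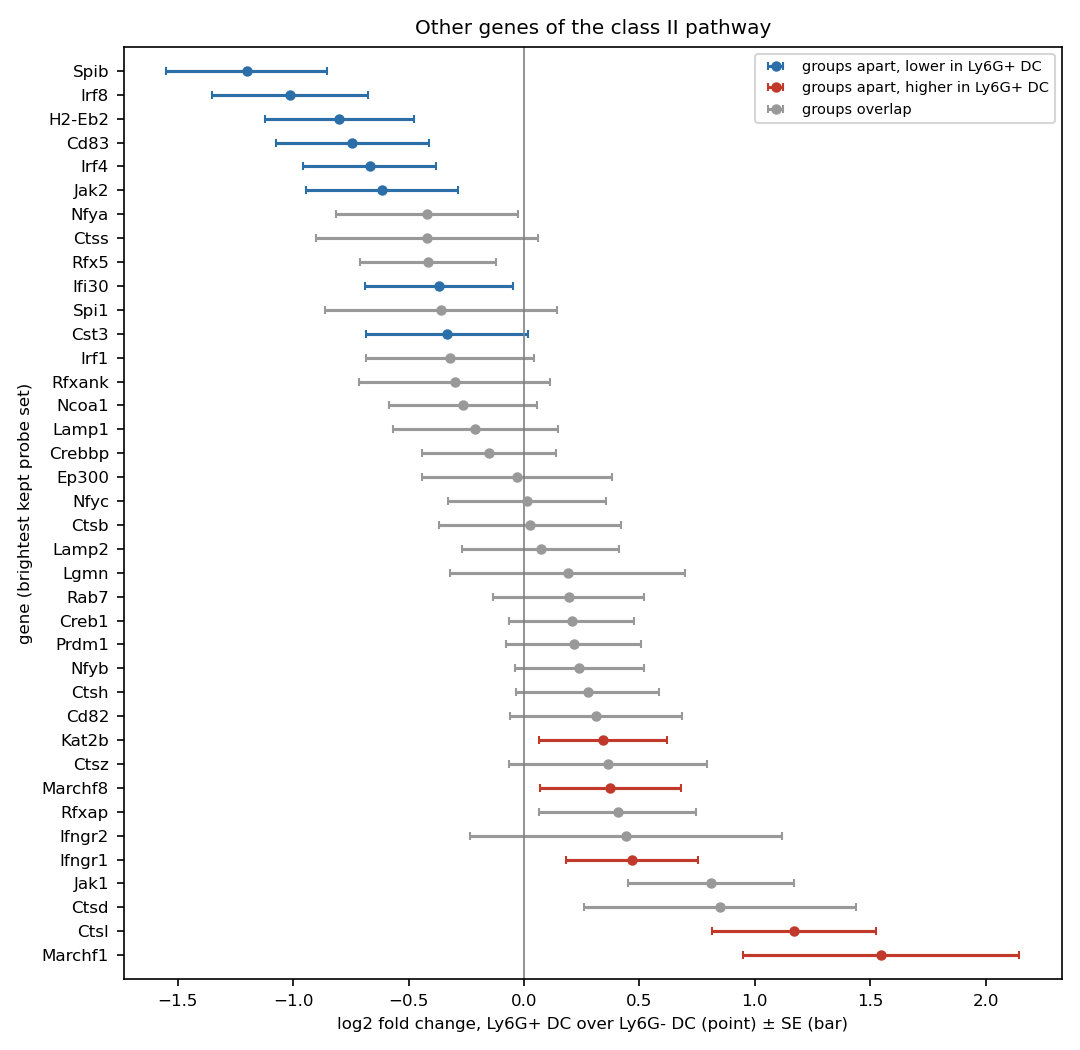
Log2 fold change (x axis, Ly6G+ DC over Ly6G- DC) with SE from limma (bars) for 38 other genes of the class II pathway (y axis), each by its brightest kept probe set; blue and red mark genes whose groups did not overlap, lower or higher in Ly6G+ DC, and grey marks overlap. Spib at -1.20 and Marchf1 at 1.55 are the ends of the range.

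**Figure D5:**
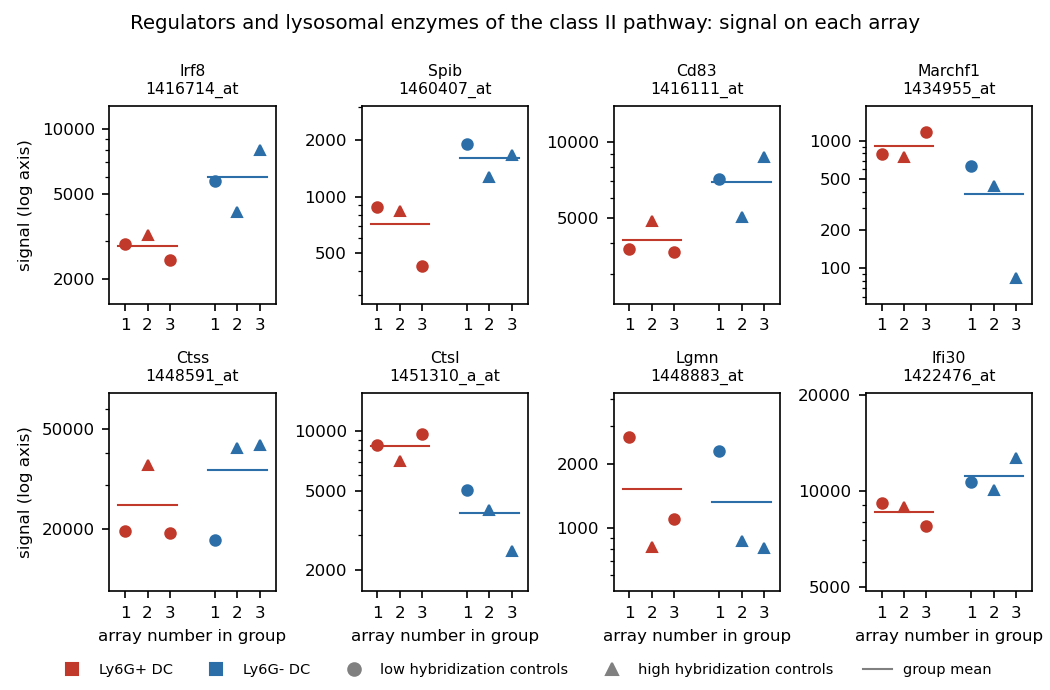
Signal (y axis, log scale) of Irf8, Spib, Cd83, Marchf1, Ctss, Ctsl, Lgmn and Ifi30 on each array (x axis, number within the group); red is Ly6G+ DC and blue Ly6G- DC, circles are arrays of the low and triangles of the high side, and lines are group means. Ctss is brightest on the high side, at 35934 to 43249, while Ctsl is 7012 to 9656 in Ly6G+ DC against 2484 to 5055 in Ly6G- DC.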

How the data were processed

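The authors deposited linear MAS5 signal intensities per probe set, 1 array per sample, and each array had the same mean after trimming 2% at either end. Per the submitters' processing notes the tools were MAS5, GCOS and Affymetrix Expression Console 2.0; any further settings are not given in the sources used here. Dim probe sets are noisy in such values, because mismatch signal is subtracted.

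Symbols came from the platform annotation, in which 34958 probe sets had 1 symbol, 932 several and 9211 none listed. Signals were analysed as log2(signal + 16), which understates folds of dim genes. Of the non-control probe sets (64 controls were left out), those were kept whose signal exceeded the 40th percentile of its array in 3 or more of the 6 arrays. The group difference was fitted in R 4.3.3 with limma 3.58.1 (functions lmFit and eBayes, intensity trend on), with Benjamini-Hochberg adjustment over all kept probe sets and a threshold of 0.05; the fit was tested on simulated data. Precision is limited by the number of arrays.

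The side of the 18 hybridization control probe sets was set at the widest gap in their mean log2 signal. The genes, lists, side and rules were chosen with earlier results of these data known. Named were all members and, of the other pathway genes, up to 5 per direction with the largest difference among those without overlap, the 2 brightest, and the regulators and proteases that members are described with. Jak2, Nfya, Nfyb, Nfyc, AU016765 and BC051142 were named after their values or matches were seen. Promoter sequences are from RefSeq. Same-numbered arrays had deviations from their group means that correlated at 0.52, 0.263 and -0.043. Ly6G+ DC 2 correlated at 0.322 with Ly6G- DC 3. The numbers were therefore not taken as pairs in the main fit, and differences within a number only describe single arrays.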

Additional observations from a re-analysis of the deposited data

How the results depend on the processing

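Under 18 alternatives with a test, 0 of the 19 class II probe sets passed limma's adjusted threshold. The median outside the sort gate, -0.68 with the group alone, moved by less than 0.51 in all of them. That is the pooled SD of the array medians within groups, a wide margin beside -0.68. The median ran from -0.96 to -0.52 when arrays were left out in turn, and was -0.35 with common median scaling and -0.43 with the side block. The median of the sort gate, -0.57 with the group alone, was -0.63 to -0.45 without each array in turn. It was -0.30 with quantile normalization, -0.24 with common median scaling and -0.32 on the low side. Within the array name of number 1 it was -0.23 (number 1 of each group, chosen as a pair after seeing the data). Except with arrays left out, each of these values moved it by more than its SD of array medians, 0.25. Common median scaling moved the median of all probe sets from -0.063 to 0.23, and relative to it the median outside the gate was -0.59 against -0.62. At an unadjusted p under 0.05 there were 778 probe sets higher and 811 lower, 914 and 544 with quantile normalization, and 1775 and 239 with common median scaling. Over the whole table limma called 0 probe sets, 19 with the replicate block, 21 with the array name block, and 0 to 24 with an array left out (24 without Ly6G- DC 1, 1 without Ly6G+ DC 2 or Ly6G- DC 2). The replicate number is shared by the groups but was not shown to pair them, and with that block the smallest adjusted p of the 19 was 0.325. Signs changed for H2-DMb2 1419744_at (-0.031 with quantile normalization, -0.38 with the side block, -0.34 to 0.64 with an array left out), H2-Ab1 1425477_x_at (0.11 with common median scaling, -0.72 to 0.42) and H2-Ab1 1451721_a_at (0.21, -0.40 to 0.28). Within the low side alone H2-Aa 1443783_x_at had 0.086 and H2-DMa 1459872_x_at 0.042, both negative with the group alone, and H2-DMb2 1419744_at had -0.87, and within number 1 Ciita 1447075_at had 0.31 and H2-DMb2 1419744_at -0.78; the cause was not tested. No level of depth is recorded for arrays, and 3 arrays per group limit what can be called.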

Other observations

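In the order of RefSeq genes, 8 of the class II genes lie in 1 cluster on chromosome 17, with 6 other genes between them, among them the class I presentation genes Tap1, Tap2, Psmb8 and Psmb9 and the chromatin factor Brd2. Of these neighbours 5 were measured, 4 with negative log2 fold changes and a median of -0.10, beside -0.68 for the class II probe sets outside the sort gate. With the side as a block these medians were -0.35 and -0.43. The sets are unlike: each neighbour was read by its brightest kept probe set. The class II median counts every probe set and includes Ciita, which is not in this cluster. Tap1, a chain of the peptide transporter, was lower on every Ly6G+ array with -0.66 ± 0.34, and Psmb8, an immunoproteasome subunit, had 0.32 ± 0.58 with the group alone and -0.23 with the side as a block (SE). H2-Eb2, a class II beta chain gene beside H2-Eb1, gave 168, 172 and 172 on the Ly6G+ arrays, against 371, 224 and 353 on the Ly6G- arrays, with -0.80 ± 0.32 (SE, limma adjusted p = 0.836). None of the 5 neighbours nor H2-Eb2 passed the adjusted threshold, and no difference between the neighbours and the class II genes was tested. These neighbours were looked up after the values of the class II genes were seen.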
